A study of Mus musculus with 9 samples.

Results

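The genes described here are those of the mitochondrial ribosomal proteins, taken as every probe set whose single gene symbol starts with Mrpl or Mrps followed by a digit. They were 76 of the 18194 genes with a symbol of their own on the array, and 156 probe sets measured them. Where a gene had several probe sets (42 of the 76 genes), the representative was chosen by the highest mean over all 9 arrays, a measured value that takes no account of group. The table also held 4 probe sets with several symbols that include a mitochondrial ribosomal protein gene, and Mrpl30 and Mrpl53 appeared only there, so these 2 genes were not counted. By role, 49 members belong to the large subunit, 26 to the small subunit, and Mrps36 to neither, since its product is now known as a component of the 2-oxoglutarate dehydrogenase complex.

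The 9 arrays came from mouse bone marrow leukemias of C57/BL6 X 129 background, with 3 arrays in each of 3 groups. Both MLL-AF9 groups started as primary leukemias of the MLL-AF9 fusion, with both copies of Af10 (Mllt10, a cofactor of the histone methyltransferase Dot1l) floxed. The Af10 deleted group had received a tdTomato vector that also expresses Cre, and the Af10 floxed group the vector without Cre. Both were passed into secondary recipients and sorted for tdTomato. The Hoxa9-Meis1 group was primary leukemias transduced with Hoxa9 and Meis1, used without treatment. Whether the arrays of a group come from different mice or different primary leukemias is not in the labels, so the p-values reflect only how these arrays vary, and that variation may be technical. Deleted and floxed leukemias differ both in Af10 and in Cre, and the effects of these cannot be told apart. The Hoxa9-Meis1 leukemias differ from both others in oncogene, in vector, in sorting and in transplant generation, which cannot be told apart either. The deleted leukemias differ from them in Cre and in the deletion of Af10 too, which cannot be told apart from the rest. Both comparisons with Hoxa9-Meis1 share the same 3 Hoxa9-Meis1 arrays.

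The mitochondrial ribosome translates the few proteins encoded by mitochondrial DNA, all of them subunits of the oxidative phosphorylation complexes. Its RNAs are made in the mitochondrion, but its proteins are encoded in the nucleus, made in the cytosol and imported. Some descend from the proteins of the bacterial ribosome, and others were added in the mitochondrion. Their genes lie scattered over the chromosomes and are commonly expressed together, and acute myeloid leukemia cells are known for their sensitivity to a block of mitochondrial translation.

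Quality and labels were checked first. Mllt10, the targeted gene, was at 9.93, 9.89 and 10.19 in deleted, 11.20, 10.49 and 11.18 in floxed, and 10.93, 10.67 and 10.46 in Hoxa9-Meis1 leukemias (log2 intensity by replicate). All deleted arrays were below all others. Mllt10 fell by 0.95 on the log2 scale in deleted against floxed leukemias (limma adjusted p = 0.0293), although the sources used here do not place its probe set inside or outside the floxed part. The Mllt10 call did not survive leaving out deleted replicate 4, deleted replicate 5, floxed replicate 4 or floxed replicate 6, with limma adjusted p of up to 0.09, and the difference stayed between -1.19 and -0.83. All 10 myeloid markers listed were measured, and their summed intensity was 76333 to 83959 in deleted, 60220 to 74187 in floxed and 78669 to 88464 in Hoxa9-Meis1 leukemias. Median intensity per array was 146 to 156, and precision is limited by having 3 arrays in a group. The 3' control probe set of Gapdh exceeded the 5' one most on floxed replicate 5, by 1.03 (log2), and by 0.44 to 0.62 on the remaining MLL-AF9 arrays and 0.67 to 0.81 on those of Hoxa9-Meis1. In bulk samples such as these, fewer cells of a type and less RNA per cell cannot be told apart.

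All 76 genes were expressed. Each had a mean above 4.71 (log2) in every group, the highest value of 9 Y-linked probe sets that were at background on all arrays, and the means over 9 arrays ran from 8.36 to 12.75. The representatives with the brightest signal were those of Mrpl52, Mrpl33 and Mrpl39, and the dimmest those of Mrpl14, Mrpl45 and Mrpl38. Brightness depends on the probes, so it does not order the genes by RNA level. The median over the 76 members was 10.68, 10.57 and 10.51 in deleted replicates 4, 5 and 6, and 10.72, 10.49 and 10.58 in floxed replicates 4, 5 and 6. It was 10.27, 10.35 and 10.42 in the Hoxa9-Meis1 arrays. The members' median was thus lower on each Hoxa9-Meis1 array than on any MLL-AF9 array, while the deleted and floxed arrays overlapped.

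**Figure D1:**
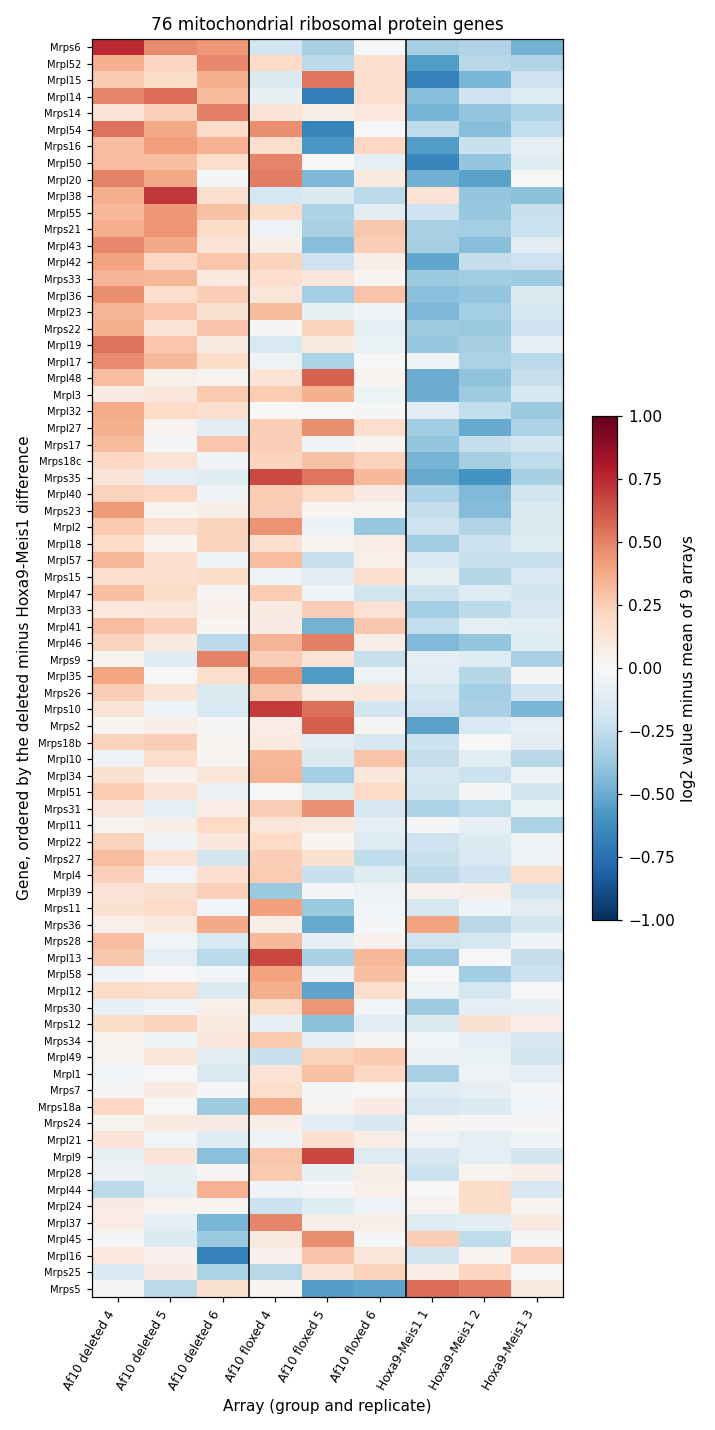
Each row is 1 of the 76 genes and each column 1 array; colour gives the log2 value minus that gene's mean over the 9 arrays, and rows are ordered by the deleted minus Hoxa9-Meis1 difference. Most rows are blue in the 3 Hoxa9-Meis1 columns and red in the deleted columns, floxed replicate 5 is blue in many rows, and Mrps5 in the last row runs the other way.

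Within a group the members varied about as much as other genes of like signal. The median SD within a group was 0.14 in deleted, 0.22 in floxed and 0.12 in Hoxa9-Meis1 leukemias, against 0.17, 0.23 and 0.16 for the 2625 genes whose mean lay between the members' quartiles of 9.84 and 11.13, a set chosen after the data were seen. The widest spreads were those of Mrpl54 (0.57), Mrpl13 (0.51) and Mrpl35 (0.50), all in floxed leukemias, where replicate 5 was the lowest for each of these genes. Floxed replicate 5 was the lowest of its group for 38 of the 76 members and for 46.1% of all genes. Deleted replicate 6 was the lowest of its group for 45 members (59.2%) and for 34.9% of all genes. Hoxa9-Meis1 replicate 1 was the lowest for 38 members and for 31.6% of all genes, and replicate 3 the highest for 42 members (55.3%) and 31.9% of all genes. Deleted replicate 4 was the highest of its group for 43 members (56.6%) and 34.7% of all genes, and floxed replicate 4 for 42 members (55.3%) and 39.1% of all genes. The part of these arrays in the results was not tested beyond leaving each out, as given beside each result.

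Few of these genes differed between Af10 deleted and floxed leukemias. Of the 76 members, Mrps6 rose and Mrps35 fell in deleted against floxed leukemias, and no other member passed an adjusted p of 0.05 (limma, Benjamini-Hochberg over all 18194 genes). These 2 are 2.63% of the members, below the 6.85% of all genes called in this comparison (3.22% higher and 3.63% lower). At an unadjusted p under 0.05 the members numbered 10 higher (13.2%) and 2 lower (2.63%), against 12.3% and 9.81% of all genes. The median difference of the members was 0.09 on the log2 scale and that of all genes 0.06, with 46 members higher and 30 lower.

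Mrps6 encodes a protein of the platform of the small subunit, where its bacterial relative pairs with a protein of the S18 family. Its gene is on chromosome 16. It was at 10.90, 10.63 and 10.58 in deleted leukemias, at 9.96, 9.82 and 10.13 in floxed leukemias, and at 9.83, 9.85 and 9.68 in Hoxa9-Meis1 leukemias (log2 intensity by replicate). Every deleted array was above every floxed and every Hoxa9-Meis1 array, and floxed and Hoxa9-Meis1 arrays overlapped. Mrps6 was 1.66-fold higher in deleted than in floxed leukemias (log2 difference 0.73, SE 0.13, limma adjusted p = 0.012). It was 1.89-fold higher in deleted than in Hoxa9-Meis1 leukemias (0.92, SE 0.13, limma adjusted p = 0.00211), and the floxed versus Hoxa9-Meis1 difference was 0.19 (limma adjusted p = 0.434). The other probe set of Mrps6 differed by 0.62 between deleted and floxed leukemias (limma adjusted p = 0.0987, over all 45101 probe sets). It differed by 0.79 between deleted and Hoxa9-Meis1 leukemias (limma adjusted p = 0.0247). The deleted versus floxed call of Mrps6 held when any single array was left out, and was lost without both deleted replicate 6 and floxed replicate 5 (limma adjusted p = 0.0566). It was also lost with the replicate number as a block (limma adjusted p = 0.0792), although the labels do not say whether these numbers pair the samples.

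Mrps35 encodes a protein of the small subunit that has no bacterial counterpart, and its gene is on chromosome 6. Its levels were 10.41, 10.19 and 10.17 in deleted, 10.94, 10.82 and 10.61 in floxed, and 9.78, 9.69 and 9.95 in Hoxa9-Meis1 leukemias. The 3 groups did not overlap, with floxed arrays highest, deleted arrays between and Hoxa9-Meis1 arrays lowest. In deleted against floxed leukemias Mrps35 fell by 0.53 on the log2 scale (1.45-fold, SE 0.13, limma adjusted p = 0.0439). That call was lost on leaving out any 1 of the 3 deleted arrays, floxed replicate 4 or floxed replicate 5, at adjusted p of 0.0574, 0.119, 0.121, 0.108 and 0.119. Mrps35 was 1.98-fold higher in floxed than in Hoxa9-Meis1 leukemias (log2 difference 0.98, SE 0.13, limma adjusted p = 0.00279), and this call held in each of the 14 alternatives tried. Between deleted and Hoxa9-Meis1 leukemias the difference was 0.45 (SE 0.13, limma adjusted p = 0.0494), and this call was lost without deleted replicate 4, 5 or 6 (adjusted p of 0.151, 0.0911 and 0.0719) or Hoxa9-Meis1 replicate 1 or 2 (0.139 and 0.166).

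The count for the whole set in deleted against floxed leukemias depended on single arrays. It was 1 on leaving out any 1 of the 3 deleted arrays or floxed replicate 5, and 4 without floxed replicate 6. With both deleted replicate 6 and floxed replicate 5 left out it was 0, with 6 members higher and 2 lower at an unadjusted p under 0.05. Among the 80 probe sets that were not representatives, 0 were called higher and 4 lower, 1 each for Mrpl1, Mrpl13, Mrps25 and Mrps31, whose representatives did not pass.

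**Figure D2:**
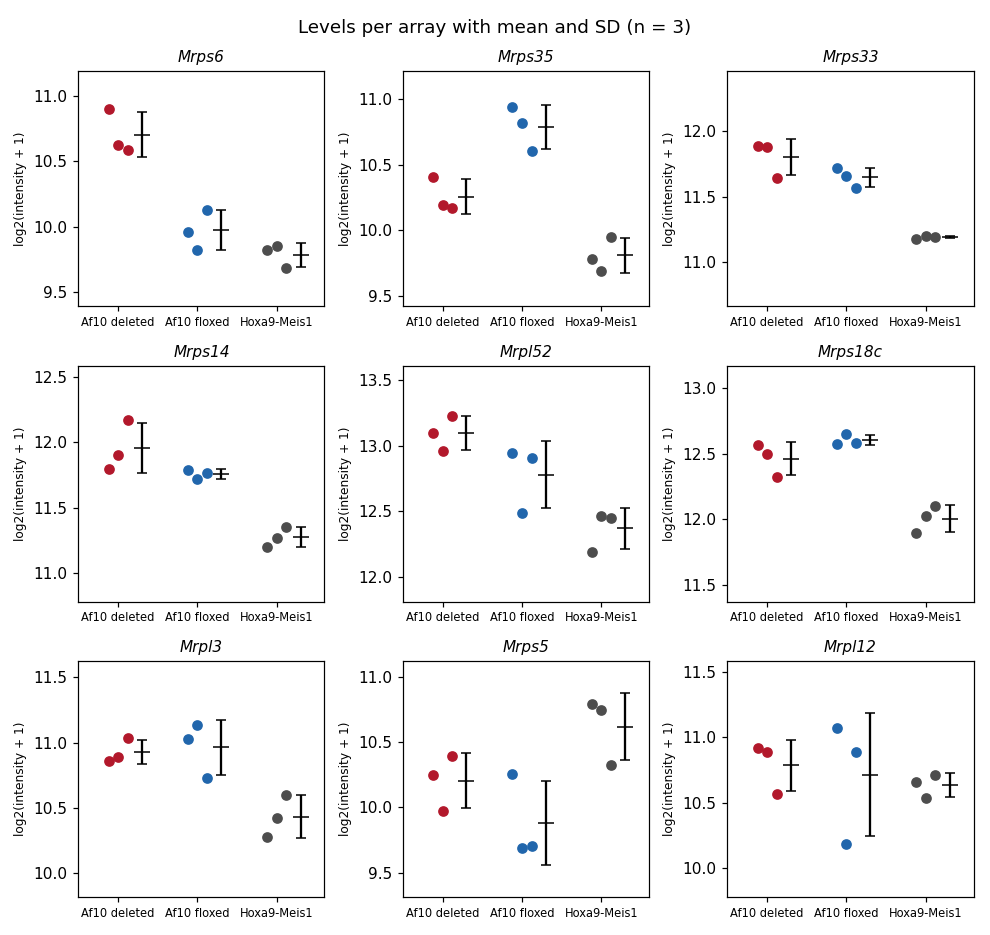
Points are single arrays and bars the mean with SD of 3 arrays, on the log2(intensity + 1) scale, for 9 members in Af10 deleted, Af10 floxed and Hoxa9-Meis1 leukemias. Mrps6 stands apart in the deleted leukemias, Mrps35 takes 3 separate levels, Mrps33, Mrps14, Mrps18c and Mrpl3 are lowest in every Hoxa9-Meis1 array, and Mrpl12 overlaps between groups.

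A minority of these genes rose in each MLL-AF9 group against Hoxa9-Meis1 leukemias, and none fell. In floxed against Hoxa9-Meis1 leukemias 9 members rose and 0 fell, and in deleted against Hoxa9-Meis1 leukemias 21 rose and 0 fell (limma adjusted p under 0.05). Over all genes, 8.89% were called in the first comparison (5.58% higher, 3.31% lower) and 15.5% in the second (9.27% higher, 6.23% lower). The members' shares called higher were 11.8% and 27.6%. Calls were more frequent at the members' signal: of the 2625 genes with a mean between the members' quartiles, 10.6% and 16.5% were called higher. At an unadjusted p under 0.05 the members numbered 27 higher (35.5%) and 1 lower in floxed leukemias, against 14.3% higher and 9.54% lower for all genes and 25.4% and 10.8% for the genes of like signal. In deleted leukemias they numbered 37 higher (48.7%) and 0 lower, against 17.6% higher and 2010 of 18194 lower for all genes, and 29.3% and 13.9% for the genes of like signal.

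The shift was small and spread over most members. The median log2 difference was 0.23 in floxed against Hoxa9-Meis1 leukemias, where that of all genes was -0.01 and that of the genes of like signal 0.13. In deleted against Hoxa9-Meis1 leukemias it was 0.32, against 0.05 for all genes and 0.15 for the genes of like signal. By sign alone, 68 members were higher and 8 lower in floxed leukemias, and 69 were higher and 7 lower in deleted leukemias. In 21 of the 76 members (27.6%) all 6 MLL-AF9 arrays were above all 3 Hoxa9-Meis1 arrays, which held for 9.44% of all genes, and in 0 were they all below, which held for 5.86%. These shares were not taken for the genes of like signal, which were called higher more often than all genes.

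**Figure D3:**
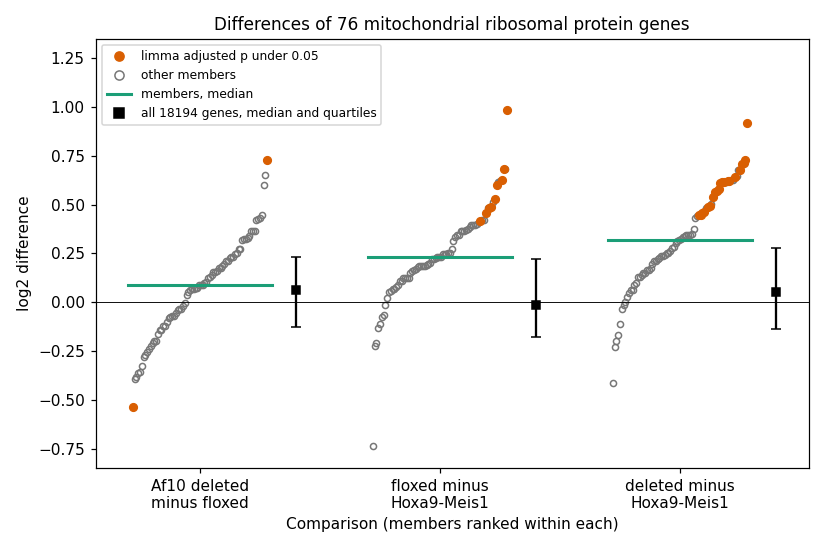
Each circle is 1 of the 76 genes, ranked by its log2 difference within each of the 3 comparisons; filled circles passed a limma adjusted p of 0.05, green lines are the members' medians and black squares with bars the median and quartiles of all 18194 genes. The members' medians are 0.09, 0.23 and 0.32, against 0.06, -0.01 and 0.05 for all genes.

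Among small subunit proteins, 4 of 26 rose in floxed and 8 of 26 in deleted leukemias against Hoxa9-Meis1, with median differences of 0.23 and 0.31. Mrps33, a small subunit protein of mitochondrial origin, was at 11.89, 11.88 and 11.65 in deleted, 11.72, 11.66 and 11.57 in floxed, and 11.18, 11.20 and 11.20 in Hoxa9-Meis1 leukemias. Every MLL-AF9 array was above every Hoxa9-Meis1 array, and the deleted and floxed arrays overlapped. Mrps33 rose by 0.61 in deleted (SE 0.11, 1.53-fold, limma adjusted p = 0.00574) and by 0.46 in floxed leukemias (SE 0.11, 1.37-fold, limma adjusted p = 0.0305). The first call held in each of the 14 alternatives tried, and the second was lost without any 1 of the 6 arrays compared, at limma adjusted p of 0.0509 to 0.104.

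Mrps14, a protein of the small subunit's head, was at 11.79, 11.90 and 12.17 in deleted, 11.79, 11.72 and 11.77 in floxed, and 11.20, 11.27 and 11.35 in Hoxa9-Meis1 leukemias. The Hoxa9-Meis1 arrays were again the lowest without overlap. The difference was 0.68 for deleted (SE 0.12, 1.60-fold, limma adjusted p = 0.00599) and 0.48 for floxed leukemias (SE 0.12, 1.40-fold, limma adjusted p = 0.0373). The gene is on chromosome 1. The 1057 genes of that chromosome were higher in deleted replicate 6 than the mean of the other deleted arrays, by a median of 0.15. Its 4 members, Mrpl15, Mrpl44, Mrps14 and Mrps9, were higher by a median of 0.43. Both values are relative to the median deviation of all genes on that array. Without that array the deleted versus Hoxa9-Meis1 difference of Mrps14 was 0.57 (limma adjusted p = 0.016). The floxed versus Hoxa9-Meis1 call of Mrps14 was lost without any 1 of the 6 arrays, at limma adjusted p of 0.0503 to 0.135. With the mean of its 3 probe sets in place of the brightest, the deleted versus Hoxa9-Meis1 difference of Mrps14 was 0.175 (limma adjusted p = 0.424).

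Mrps18c is 1 of the 3 mitochondrial relatives of a single bacterial protein. It was at 12.56, 12.50 and 12.32 in deleted, 12.58, 12.65 and 12.58 in floxed, and 11.89, 12.02 and 12.10 in Hoxa9-Meis1 leukemias, with no overlap between MLL-AF9 and Hoxa9-Meis1 arrays. It rose by 0.60 in floxed (SE 0.11, 1.51-fold, limma adjusted p = 0.012) and by 0.46 in deleted leukemias (SE 0.11, 1.37-fold, limma adjusted p = 0.0235). The first call was lost without Hoxa9-Meis1 replicate 1 (limma adjusted p = 0.0552). The second was lost without deleted replicate 4 or 5 (0.08 and 0.0727) or Hoxa9-Meis1 replicate 1 or 2 (0.092 and 0.0701). Its relatives did not pass in any comparison (levels here and below are mean ± SD in log2 intensity, n = 3 per group): Mrps18b was at 11.03 ± 0.13, 10.81 ± 0.14 and 10.75 ± 0.11, and Mrps18a, which sits in the large subunit, at 10.24 ± 0.29, 10.45 ± 0.19 and 10.18 ± 0.07 in deleted, floxed and Hoxa9-Meis1 leukemias.

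Other small subunit members that rose in deleted against Hoxa9-Meis1 leukemias were Mrps21, Mrps22 and Mrps17, by 0.62, 0.57 and 0.47 (limma adjusted p of 0.0277, 0.0138 and 0.0457), besides Mrps6 and Mrps35. Mrps22 and Mrps17 were named after their values were seen, to complete the list. The calls of all 3 were lost without deleted replicate 4 (adjusted p of 0.0817, 0.0515 and 0.138), without Hoxa9-Meis1 replicate 1 (0.0902, 0.0555 and 0.155) and without replicate 2 (0.0916, 0.0562 and 0.111). The call of Mrps21 was also lost without deleted replicate 5 (0.0887). That of Mrps17 was also lost without deleted replicate 6 (0.12) or Hoxa9-Meis1 replicate 3 (0.0625).

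Mrps5, which lines the channel where mRNA enters, had the lowest difference of all members in both comparisons with Hoxa9-Meis1. It was at 10.25, 9.98 and 10.39 in deleted, 10.25, 9.69 and 9.70 in floxed, and 10.79, 10.74 and 10.32 in Hoxa9-Meis1 leukemias. The lowest Hoxa9-Meis1 array lay within the range of the deleted arrays and above all floxed arrays. The difference was -0.74 in floxed (SE 0.20, limma adjusted p = 0.0518) and -0.41 in deleted leukemias (SE 0.20, limma adjusted p = 0.212). It passed the threshold as lower in floxed leukemias without floxed replicate 4 (-0.92, limma adjusted p = 0.0247) or Hoxa9-Meis1 replicate 3 (-0.89, limma adjusted p = 0.0324), and under 4 other settings. With the mean of its 5 probe sets the difference of Mrps5 was -0.16 in floxed (limma adjusted p = 0.599) and -0.06 in deleted leukemias (-0.061, limma adjusted p = 0.85). Of those 5 probe sets, 2 were higher in floxed than in Hoxa9-Meis1 leukemias by sign, at 0.27 and 0.13. The next lowest members were Mrps12 at -0.23 and Mrpl24 at -0.21 in floxed, and Mrps25 at -0.23 and Mrpl16 at -0.20 in deleted leukemias, and none of these passed. Another probe set of Mrps25 was called lower in deleted leukemias, as given below. For Mrpl16 the value without deleted replicate 6 was 0.049.

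Among large subunit proteins, 5 of 49 rose in floxed and 13 of 49 in deleted leukemias against Hoxa9-Meis1, with median differences of 0.25 and 0.34. Mrpl52, of mitochondrial origin, was at 13.10, 12.96 and 13.23 in deleted, 12.95, 12.49 and 12.91 in floxed, and 12.19, 12.47 and 12.45 in Hoxa9-Meis1 leukemias. The deleted arrays stood clear of the Hoxa9-Meis1 arrays, and floxed replicate 5 only just did. Mrpl52 rose by 0.73 in deleted leukemias (SE 0.15, 1.66-fold, limma adjusted p = 0.0134), a call lost without Hoxa9-Meis1 replicate 1 (0.64, limma adjusted p = 0.0574), and its floxed difference was 0.41 (limma adjusted p = 0.139).

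Mrpl3, which reaches towards the peptidyl transferase centre where peptide bonds form, was at 10.86, 10.89 and 11.03 in deleted, 11.03, 11.13 and 10.73 in floxed, and 10.28, 10.42 and 10.60 in Hoxa9-Meis1 leukemias. No MLL-AF9 array overlapped the Hoxa9-Meis1 arrays. The difference was 0.53 in floxed (SE 0.14, limma adjusted p = 0.0486) and 0.49 in deleted leukemias (SE 0.14, limma adjusted p = 0.0441). The floxed call of Mrpl3 was lost without floxed replicate 4 or 5 (adjusted p of 0.115 and 0.126) or Hoxa9-Meis1 replicate 1 or 2 (0.174 and 0.136). The deleted call was lost without deleted replicate 4, 5 or 6 (0.0854, 0.0942 and 0.12) or Hoxa9-Meis1 replicate 1 or 2 (0.154 and 0.123). With the mean of its probe sets the 2 differences of Mrpl3 were 0.28 and 0.155, and neither passed.

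In floxed against Hoxa9-Meis1 leukemias the other large subunit members called were Mrpl27, which also lies near the peptidyl transferase centre, by 0.68 (limma adjusted p = 0.0213), Mrpl48 by 0.63 (0.0474), Mrpl40 by 0.49 (0.0389) and Mrpl33 by 0.42 (0.0352). Mrpl40 and Mrpl48 belong to the central protuberance, the knob of the large subunit that faces the small subunit. Mrpl40 rose in deleted leukemias too, by 0.45 (limma adjusted p = 0.0375), a call lost without deleted replicate 4 or 5 (0.116 and 0.111) or Hoxa9-Meis1 replicate 1 or 2 (0.105 and 0.136). The differences of Mrpl27, Mrpl33 and Mrpl48 in deleted leukemias were 0.48, 0.34 and 0.50, at limma adjusted p of 0.0546, 0.0501 and 0.0725. The floxed calls of Mrpl27, Mrpl33, Mrpl40 and Mrpl48 were all lost without floxed replicate 5 (adjusted p of 0.0634, 0.0812, 0.0861 and 0.0977), without Hoxa9-Meis1 replicate 1 (0.0697, 0.133, 0.118 and 0.163) and without replicate 2 (0.083, 0.112, 0.142 and 0.135). Those of Mrpl33, Mrpl40 and Mrpl48 were also lost without floxed replicate 4 (0.0574, 0.1 and 0.0716), those of Mrpl33 and Mrpl40 without floxed replicate 6 (0.0756 and 0.059), and that of Mrpl48 without Hoxa9-Meis1 replicate 3 (0.0514).

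In deleted against Hoxa9-Meis1 leukemias the other called large subunit members with the largest rises were Mrpl15 by 0.71 and Mrpl14 by 0.71, followed by Mrpl50 by 0.64, Mrpl55 by 0.62, Mrpl42 by 0.62, Mrpl36 by 0.61 and Mrpl23 by 0.58, at limma adjusted p of 0.0165 to 0.0461. Mrpl54 (0.68), Mrpl20 (0.62) and Mrpl38 (0.62) had differences of that size and did not pass (limma adjusted p of 0.102, 0.141 and 0.0513). Mrpl14 binds Malsu1, which keeps the subunits apart during assembly, and Mrpl23 lies at the exit of the peptide tunnel. For Mrpl14, Mrpl15, Mrpl23, Mrpl36 and Mrpl50 the call was lost without deleted replicate 4 (adjusted p from 0.0753 to 0.137), deleted replicate 5 (0.0646 to 0.128), Hoxa9-Meis1 replicate 1 (0.0876 to 0.155) or replicate 2 (0.0737 to 0.134). All of these except Mrpl23 were also lost without deleted replicate 6 (0.069 to 0.0827), and Mrpl14 without Hoxa9-Meis1 replicate 3 (0.0664). The call of Mrpl42 was lost without deleted replicate 4 or Hoxa9-Meis1 replicate 1 (0.0723 and 0.0807), and that of Mrpl55 without deleted replicate 5 or Hoxa9-Meis1 replicate 2 (0.0574 and 0.0662). Mrpl17, Mrpl19 and Mrpl32 were the remaining large subunit members called, by 0.54, 0.56 and 0.49, and are named after their values were seen. Their calls were lost without deleted replicate 4 (0.0944, 0.1 and 0.0669) and without Hoxa9-Meis1 replicate 2 (0.104, 0.107 and 0.0644). Those of Mrpl17 and Mrpl19 were also lost without deleted replicate 5 (0.0732 and 0.0763), those of Mrpl17 and Mrpl32 without Hoxa9-Meis1 replicate 3 (0.0687 and 0.0513), and that of Mrpl19 without replicate 1 (0.114).

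The number of calls in both comparisons with Hoxa9-Meis1 rested on few arrays. In floxed leukemias it was 9, but 5 without floxed replicate 4, 3 without floxed replicate 5, 1 without Hoxa9-Meis1 replicate 1 and 2 without Hoxa9-Meis1 replicate 2. In deleted leukemias it was 21, but 5 without deleted replicate 4, 8 without deleted replicate 5, 7 without Hoxa9-Meis1 replicate 1 and 5 without Hoxa9-Meis1 replicate 2. Calls over all genes fell as well, to 3.74% in floxed and 8.46% in deleted leukemias without Hoxa9-Meis1 replicate 1. Calls that held without any 1 array were those of Mrps35 in floxed, and of Mrps6, Mrps14 and Mrps33 in deleted leukemias. The members' medians kept their sign throughout. After another quantile normalization the calls in floxed leukemias were 3 higher and 1 lower, and with each array centred on its median 4 higher and 1 lower.

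Calls also depended on the processing. When all probe sets of a gene were averaged, 4 of the 9 calls in floxed and 16 of the 21 in deleted against Hoxa9-Meis1 leukemias were shared. The totals did not fall, at 10 in floxed and 21 in deleted leukemias, all higher, as other members were called instead. Those lost in floxed leukemias were Mrpl27 (0.32, limma adjusted p = 0.123), Mrpl48 (0.42, 0.31), Mrpl33 (0.24, 0.431), Mrpl3 and Mrps14. Those lost in deleted leukemias were Mrps21 (0.355, limma adjusted p = 0.347), Mrpl19 (0.34, 0.136), Mrpl17 (0.44, 0.0588), Mrpl3 and Mrps14. The difference of Mrpl42, still called, was 0.35. After another quantile normalization 3 of the 9 calls were shared, with Mrps33, Mrps14, Mrpl3, Mrpl33, Mrpl40 and Mrpl48 lost, and 13 of the 21, with Mrps17, Mrps21, Mrps35, Mrpl3, Mrpl17, Mrpl36, Mrpl40 and Mrpl50 lost. With array medians centred 4 of the 9 calls were shared, with Mrps14, Mrpl3, Mrpl33, Mrpl40 and Mrpl48 lost, and 16 of the 21, with Mrps17, Mrps35, Mrpl3, Mrpl40 and Mrpl50 lost. When the third group was kept out of the model, Mrpl3, Mrpl33, Mrpl40 and Mrpl48 were lost in floxed, and Mrps17, Mrps35, Mrpl19 and Mrpl40 in deleted leukemias. The call of Mrps35 in deleted against floxed leukemias was lost with only those groups (limma adjusted p = 0.0857) and with array weights (0.0721).

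Several members are known for a special task, and their levels are given whatever their change. Mrpl12 forms the flexible stalk that contacts translation factors, and was at 10.79 ± 0.19 in deleted, 10.71 ± 0.47 in floxed and 10.63 ± 0.09 in Hoxa9-Meis1 leukemias. Mrpl10, which anchors the stalk, was at 9.65 ± 0.11, 9.76 ± 0.26 and 9.39 ± 0.09. Mrps12 of the decoding centre was at 11.11 ± 0.06, 10.74 ± 0.18 and 10.97 ± 0.15. These members, whose products touch factors or decode mRNA, did not pass in any comparison.

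Mrpl45, which holds the ribosome at the inner membrane, was at 8.43 ± 0.18 in deleted, 8.79 ± 0.25 in floxed and 8.60 ± 0.25 in Hoxa9-Meis1 leukemias. Mrpl44, which carries a ribonuclease-like domain, was at 10.96 ± 0.32, 10.96 ± 0.05 and 10.97 ± 0.17, and Mrps27, a pentatricopeptide repeat protein, at 8.92 ± 0.25, 8.88 ± 0.27 and 8.69 ± 0.10. Mrps30, which despite its name sits in the large subunit, was at 10.03 ± 0.07, 10.25 ± 0.24 and 9.88 ± 0.15, and Mrps36 at 11.28 ± 0.18, 10.95 ± 0.31 and 11.08 ± 0.37. None of these 5 passed in any comparison. Of the 11 members with a special task, only Mrps18c was called in either comparison with Hoxa9-Meis1, although 2 of the 11 were called in floxed leukemias without floxed replicate 5.

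Grouping the members by origin gave similar medians. Of the 47 members with a bacterial counterpart, 5 rose in floxed and 14 in deleted leukemias against Hoxa9-Meis1, with medians of 0.22 and 0.32. Of the 28 members that are specific to mitochondria, leaving out Mrps36, 4 and 7 rose, with medians of 0.30 and 0.34. The difference between subunits or origins was not tested.

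Different probe sets of a gene did not always move together. Of the 80 probe sets that were not representatives, 10 were called higher and 0 lower in floxed, and 9 higher and 3 lower in deleted against Hoxa9-Meis1 leukemias. For Mrpl15, 3 further probe sets were called higher in both comparisons, with deleted differences from 0.88 to 1.05. For Mrpl35 and Mrpl54, a dimmer probe set fell by 0.68 and 0.61 in deleted leukemias (limma adjusted p of 0.0204 and 0.019), while their representatives were at 0.32 and 0.68 and did not pass. For both genes the direction therefore depends on the probe set. The remaining probe set called lower was that of Mrps25 (-0.48, limma adjusted p = 0.0277), whose representative was also lower, at -0.23, and did not pass.

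The promoters of the members were compared with those of other genes, since the genes lie on 17 chromosomes. The RefSeq promoter table (GRCm38.p6, from 250 bases before to 50 after each start) held 67 of the 76 members. Motifs were searched on both strands of the whole 300 bases, and may overlap. The NRF1 motif was in 12 members (17.9%) and in 8.63% of the 14368 genes of the table. Those of the ETS family motif bound by Gabpa, CCGGAAG, were in 25 members (37.3%) and 2158 of those 14368 genes, and those of the YY1 motif, AAGATGGC, in 12 members (17.9%) and 4.09% of genes. The SP1 motif GGGCGG was in 34 members (50.7%) and 57.5% of genes, CCAAT in 26 (38.8%) and 42.0%, and the E-box CACGTG of the Myc family in 5 (7.46%) and 10.3%. A match is a string of letters and was not tested as a binding site.

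The stretches below are the 120 bases before the start of 5 members, printed in the direction of transcription with matches to these motifs in capitals on either strand. Mrps6 is the member with the clearest rise in deleted leukemias and holds 4 overlapping or separate SP1 matches, Mrpl52 and Mrpl3 hold ETS matches, and Mrps21 and Mrpl32 hold NRF1 matches. They lie at chr16:92058216-92058335 (plus strand), chr14:54426789-54426908 (plus), chr9:105053148-105053267 (plus), chr3:95871515-95871634 (minus) and chr13:14613038-14613157 (minus).
Mrps6: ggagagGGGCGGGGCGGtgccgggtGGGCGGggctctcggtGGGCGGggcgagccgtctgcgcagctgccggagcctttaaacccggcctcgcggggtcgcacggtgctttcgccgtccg
Mrpl52: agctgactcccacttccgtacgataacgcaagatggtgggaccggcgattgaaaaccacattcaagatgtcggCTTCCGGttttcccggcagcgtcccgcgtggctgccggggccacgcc
Mrpl3: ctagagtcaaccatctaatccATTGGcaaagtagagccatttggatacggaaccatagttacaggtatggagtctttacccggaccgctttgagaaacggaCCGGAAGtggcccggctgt
Mrps21: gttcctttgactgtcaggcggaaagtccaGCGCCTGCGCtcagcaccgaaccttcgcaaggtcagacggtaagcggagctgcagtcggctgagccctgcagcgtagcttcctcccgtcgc
Mrpl32: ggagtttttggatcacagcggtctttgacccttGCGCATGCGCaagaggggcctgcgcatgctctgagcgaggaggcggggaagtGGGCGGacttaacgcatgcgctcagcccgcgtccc

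Many members start beside another gene that runs the opposite way. A start of the other strand lay within 500 bases for 23 of the 67 members (34.3%) and for 11.7% of the 14368 genes. The pair Mrpl46 and Mrps11, both members, start 42 bases apart. Mrpl32 starts 205 bases from Psma2, a proteasome subunit gene, and both rose in deleted against Hoxa9-Meis1 leukemias, by 0.49 and 0.50 (limma adjusted p of 0.019 and 0.0251). The call of Mrpl32 was lost without deleted replicate 4 (0.0669), Hoxa9-Meis1 replicate 2 (0.0644) or replicate 3 (0.0513), and that of Psma2 without deleted replicate 4 or 5 or Hoxa9-Meis1 replicate 1 or 2 (up to 0.0934). Mrpl55 rose by 0.62 (limma adjusted p = 0.0165), and 2610507I01Rik, which starts 55 bases away, rose by 1.03 (limma adjusted p = 0.0337), a call lost without any 1 deleted array or Hoxa9-Meis1 replicate 1 or 3 (up to 0.118). For Mrpl14 the difference was 0.71, and for its partner Tmem63b, 131 bases away, it was 4e-04 (limma adjusted p = 0.999). Mrps26 was at 0.31 and did not pass (limma adjusted p = 0.145). Its partner 4930473A02Rik, 8 bases away, fell by 0.80 (limma adjusted p = 0.00798), a call that held without any 1 array. Over the 23 members with a partner, the signs of member and partner were the same for 13 in deleted and for 10 in floxed against Hoxa9-Meis1 leukemias. Member and partner were both called in deleted leukemias for 2 of the 6 members called there, Mrpl32 and Mrpl55, and in floxed leukemias for 0 of 4. Of the partners of the 23 members, 2 were called higher and 1 lower in each of these comparisons. Over all genes, 15.5% were called in deleted and 8.89% in floxed against Hoxa9-Meis1 leukemias. These pairs were picked after their values were seen.

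The proteins that make and serve the mitochondrial ribosome were read from lists of their own. Of 25 assembly factors, 0 rose and Nsun4, an rRNA methyltransferase, fell in deleted against floxed leukemias (-0.65, limma adjusted p = 0.0335). Against Hoxa9-Meis1, Gtpbp10 (0.85, limma adjusted p = 0.0252) and Ngrn (0.63, 0.0346) rose in floxed leukemias. In deleted leukemias Ngrn (0.75, 0.0113), Mterf4 (0.60, 0.0166) and Malsu1 (0.55, 0.0314) rose and Nsun4 fell (-0.58, 0.0293). Without any 1 array, the call of Ngrn in deleted leukemias held (adjusted p of up to 0.0499), and each of the others was lost without at least 1 array, at adjusted p of 0.0605 to 0.132 at the highest. The list's median was 0.09 in deleted against floxed, 0.07 in floxed against Hoxa9-Meis1 and 0.20 in deleted against Hoxa9-Meis1 leukemias.

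Of 13 translation factors and their helpers, Mtfmt, which formylates the initiator tRNA, and Guf1, an elongation factor, fell in deleted against floxed leukemias (-0.61 and -0.78, limma adjusted p of 0.0149 and 0.0402). Oxa1l, which inserts new proteins into the inner membrane, rose in floxed and deleted leukemias against Hoxa9-Meis1 (0.63 and 0.59, limma adjusted p of 0.0193 and 0.017), as did the initiation factor Mtif3 (0.48 and 0.56, limma adjusted p of 0.0251 and 0.00861). The elongation factor Gfm1 rose in deleted leukemias (0.61, limma adjusted p = 0.0441), where Mtfmt fell (-0.43, limma adjusted p = 0.034). The call of Mtif3 in deleted leukemias held without any 1 array (adjusted p of up to 0.0372), that of Mtfmt in deleted against floxed leukemias was lost without deleted replicate 5 (0.0535), and each of the others was lost without 3 or more arrays in turn. The medians of the list were -0.03, 0.30 and 0.21 in the same order of comparisons.

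Of 16 mitochondrial aminoacyl-tRNA synthetases, Lars2 fell in floxed against Hoxa9-Meis1 leukemias (-0.79, limma adjusted p = 0.0124), and 0 passed in the other comparisons, where 2 were higher and 1 lower (deleted versus floxed) and 2 higher and 2 lower (deleted versus Hoxa9-Meis1) at an unadjusted p under 0.05 by limma. Among 9 genes of mitochondrial DNA copying and transcription, Polg2, the accessory subunit of the mitochondrial DNA polymerase, was 4.35-fold lower in floxed and 5.16-fold lower in deleted than in Hoxa9-Meis1 leukemias (-2.12 and -2.37, limma adjusted p of 0.000405 and 0.000111). Of 4 further mitoribosome proteins without an Mrp name, Ptcd3 fell in deleted against Hoxa9-Meis1 leukemias (-0.50, limma adjusted p = 0.0369). The median of these 4 was -0.06 in deleted against floxed, -0.08 in floxed against Hoxa9-Meis1 and -0.14 in deleted against Hoxa9-Meis1 leukemias. Against Hoxa9-Meis1, 2 of the 4 were higher by sign in floxed and 1 in deleted leukemias. In the same order the medians of the synthetases were 0.03, 0.002 and -0.04. Those of the 9 genes with Polg2 were 0.06, -0.001 and 0.17. Both calls of Polg2 held without any 1 array (adjusted p of up to 0.00303 and 0.000876), that of Lars2 was lost without Hoxa9-Meis1 replicate 2 (0.0513), and that of Ptcd3 without deleted replicate 4 or 5 or Hoxa9-Meis1 replicate 1 or 2 (up to 0.13).

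Of 11 regulators known to act on these genes, Gabpa and Gabpb1, the subunits of the ETS factor named above, rose in floxed against Hoxa9-Meis1 leukemias (0.73 and 1.02, limma adjusted p of 0.0215 for each), where Myc fell (-1.20, limma adjusted p = 0.0333). Their differences in deleted leukemias were 0.50, 0.50 and -0.50, and did not pass. Mycn fell in deleted against floxed and against Hoxa9-Meis1 leukemias (-1.05 and -1.10, limma adjusted p of 0.000547 and 0.000204). Esrra, a nuclear receptor of mitochondrial genes, rose in deleted against floxed leukemias (0.82, limma adjusted p = 0.0202). The calls of Mycn held without any 1 array (adjusted p of up to 0.00394). That of Esrra was lost without deleted replicate 5 (0.0681), and those of Gabpa, Gabpb1 and Myc without floxed replicate 5, Hoxa9-Meis1 replicate 1 or, for Gabpa and Myc, replicate 2 and, for Gabpb1, replicate 3 (up to 0.09, 0.0811 and 0.128). The part of these regulators in the members' levels was not tested.

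Cytosolic ribosomal proteins and oxidative phosphorylation subunits were read for comparison. Of 43 cytosolic ribosomal proteins, 1 rose and 0 fell in floxed, and 1 rose and 1 fell in deleted against Hoxa9-Meis1 leukemias, with medians of 0.01 and 0.05. Of 82 subunits of oxidative phosphorylation, 5 rose and 0 fell in floxed, and 8 rose and 0 fell in deleted leukemias, with medians of 0.15 and 0.19. Their shares called higher, 6.1% and 9.76%, were near the 5.58% and 9.27% of all genes. For the cytosolic ribosomal proteins that share was 2.33% in each comparison. The genes at the members' signal had medians of 0.13 and 0.15. The members' medians of 0.23 and 0.32 were higher than those of either family, and the difference between families was not tested.

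**Figure D4:**
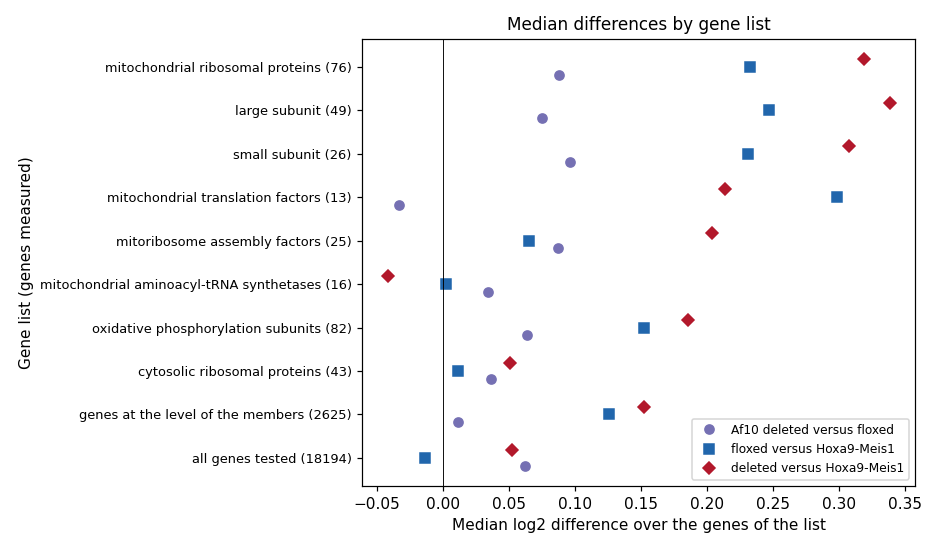
Each symbol is the median log2 difference over the genes of a list, with the number of genes measured in brackets, for the 3 comparisons. Mitochondrial ribosomal proteins are at 0.23 and 0.32 against Hoxa9-Meis1, cytosolic ribosomal proteins at 0.01 and 0.05, and oxidative phosphorylation subunits at 0.15 and 0.19.

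Markers of proliferation and of other cells also differed between MLL-AF9 and Hoxa9-Meis1 leukemias. Of 7 cycling cell markers measured, Top2a, Cdk1 and Rrm2 rose in both comparisons with Hoxa9-Meis1. Both calls of Cdk1 held without any 1 array (adjusted p of up to 0.0369 in floxed and 0.012 in deleted leukemias), and those of Top2a and Rrm2 were each lost without 2 or more arrays in turn. The summed intensity of the 7 was 37521 to 39865 in deleted, 37080 to 40269 in floxed and 31524 to 32439 in Hoxa9-Meis1 leukemias, without overlap between MLL-AF9 and Hoxa9-Meis1 arrays. Of 6 markers of mast cells, basophils and eosinophils, Cpa3, Fcer1a and Ms4a2 fell in floxed, and Cpa3 and Fcer1a in deleted leukemias. By sign 2 of the 6 were higher and 4 lower in each comparison. The call of Cpa3 held without any 1 array in deleted leukemias, and was lost in floxed leukemias without Hoxa9-Meis1 replicate 1 (limma adjusted p = 0.0547). With each of the 6 arrays left out in turn, Fcer1a stayed called in 2 runs in floxed and 1 in deleted leukemias. Ms4a2 stayed called in 1 run. The sum of the 6 markers was 1072 to 2053 in deleted, 1268 to 2369 in floxed and 2641 to 12496 in Hoxa9-Meis1 leukemias. The part of either marker list in the members' differences was not tested.

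Markers of other lineages differed in part. Of the 10 myeloid markers, Fcgr3 rose in deleted against floxed (0.88, limma adjusted p = 0.0166) and against Hoxa9-Meis1 leukemias (0.64, 0.0328), and Cebpa fell in floxed against Hoxa9-Meis1 leukemias (-1.13, 0.0189). The myeloid sums given above did not overlap between floxed leukemias and either other group. Of 8 late neutrophil markers, Cxcr2 rose in deleted against floxed (1.90, limma adjusted p = 0.00398) and against Hoxa9-Meis1 leukemias (2.08, 0.00126), while the sums overlapped, at 73030 to 98295 in deleted, 58863 to 94889 in floxed and 67518 to 86049 in Hoxa9-Meis1 leukemias. Both calls of Cxcr2 held without any 1 array (adjusted p of up to 0.0176 and 0.00695), and those of Fcgr3 and Cebpa were each lost without 2 or more arrays in turn.

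Of 7 erythroid markers, Klf1 rose in deleted against Hoxa9-Meis1 leukemias (0.81, limma adjusted p = 0.0375). The erythroid sums were 2389 to 2886 in deleted, 2047 to 2529 in floxed and 2612 to 2870 in Hoxa9-Meis1 leukemias, with no overlap between floxed and Hoxa9-Meis1 arrays. Among 7 T and NK cell markers, Cd3e, Klrd1 and Gzma rose in deleted against floxed leukemias, and these 3 and Cd3d (named after its values were seen) in deleted against Hoxa9-Meis1 leukemias, while the sums overlapped (1319 to 3405, 2149 to 4760 and 2069 to 4612 in deleted, floxed and Hoxa9-Meis1 leukemias). By sign 6 of the 7 were higher and 1 lower in both comparisons, with lowest differences of -1.34 against floxed and -1.42 against Hoxa9-Meis1 leukemias. At an unadjusted p under 0.05 (limma), 5 were higher and 0 lower against floxed, and 5 higher and 1 lower against Hoxa9-Meis1 leukemias. The calls of Cd3e and Gzma held without any 1 array in both comparisons, as did that of Klrd1 in deleted against Hoxa9-Meis1 leukemias. Its call in deleted against floxed leukemias was lost without floxed replicate 5 (0.0531), and those of Klf1 and Cd3d were each lost without 4 or more arrays in turn.

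Of 7 B cell markers, Cd79b fell in deleted against floxed leukemias (-0.75, limma adjusted p = 0.00481) and rose in floxed against Hoxa9-Meis1 leukemias (0.45, 0.0355), and Cd79a and Igll1 rose in deleted against Hoxa9-Meis1 leukemias (1.30 and 0.83, limma adjusted p of 0.0177 and 0.037). By sign 5 of the 7 were higher in deleted than in floxed leukemias, with 4 higher and 2 lower at an unadjusted p under 0.05. The sums were 1557 to 1718 in deleted, 2317 to 3537 in floxed and 1215 to 2521 in Hoxa9-Meis1 leukemias. The fall of Cd79b held without any 1 array (adjusted p of up to 0.0181), and the other 3 B cell calls were each lost without 3 or more arrays in turn. Of 6 stromal and endothelial markers, Cdh5 rose in deleted against Hoxa9-Meis1 leukemias (0.58, limma adjusted p = 0.0366), a call lost without any 1 of the 6 arrays, and the sums were 526 to 783 in deleted, 492 to 610 in floxed and 481 to 525 in Hoxa9-Meis1 leukemias. Of 5 megakaryocyte markers 0 passed (limma; at an unadjusted p under 0.05, 1 was lower in floxed and 1 higher and 1 lower in deleted against Hoxa9-Meis1 leukemias), and Ppbp was not above the Y-linked background. The part of these markers in the members' differences was not tested.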

How the data were processed

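RNA of 9 bone marrow samples was hybridised to 1-colour mouse arrays, 1 array per sample. Values were deposited as probe set intensities, 1 for every array, which the authors made with RMA per the submitters' processing notes (background correction, quantile normalization and median polish); which chip definition was used is not given in the sources used here. The values run from 4.6 to 32082, so they are linear, and log2(intensity + 1) was taken. RMA would remove a shift of most genes in 1 direction, and probe sets that end in _s_at or _x_at can bind related transcripts. Of 45101 probe sets, 34958 had 1 symbol in the platform annotation, 932 several and 9211 were not listed; 34754 matched an NCBI RefSeq table (GRCm38.p6) by gene ID, 204 did not, and 0 symbols changed. For 18194 genes the probe set of highest mean across all 9 arrays stood for the gene.

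All 9 arrays entered 1 group-means model in limma 3.58.1 (lmFit and eBayes, R 4.3.3), two-sided, with Benjamini-Hochberg adjustment over all genes and calls at adjusted p under 0.05. The fit was tested on simulated data with known changes. Groups came from the labels, and Hoxa9-Meis1 arrays were numbered in accession order. No pair of arrays was a duplicate (smallest mean absolute difference 0.219, log2). Promoters came from RefSeq (GRCm38.p6), and Python 3.11.15 was used for motifs and figures.

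The members, roles and lists were chosen with earlier results of these data known. Members were named if called (up to the 12 largest differences in each direction), or as the 3 largest differences of a direction without a call; further, members with a special role, the brightest 3 and dimmest 3, the 3 with the widest spread, and members whose other probe sets were called the opposite way. Other lists gave up to 3 called genes each. Alternatives were another pseudocount (32), another quantile normalization, centring, the mean of probe sets, genes with a mean above 6 only, only the groups compared, array weights, a replicate block, no genes of chromosomes 1, 5 and 15, and each array left out.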

Additional observations from a re-analysis of the deposited data

How the results depend on the processing

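The medians of the 76 members kept their sign under each alternative tried and moved by less than the SD of the array medians (0.093); they ranged from 0.04 (0.0364) to 0.15 (0.1548) in deleted versus floxed, 0.16 (0.1589) to 0.31 (0.3117) in floxed versus Hoxa9-Meis1 and 0.25 (0.2457) to 0.36 (0.3596) in deleted versus Hoxa9-Meis1 leukemias. Counts of called members moved more. In deleted versus floxed leukemias the count of 2 became 1 with only the 2 groups compared or with array weights, and 0 with both deleted replicate 6 and floxed replicate 5 left out; leaving out each array gave 1 to 4. With the replicate number as a block the replicate block fit called 0 members, with 5 higher and 3 lower at an unadjusted p under 0.05 by limma. The labels do not say whether the numbers 4, 5 and 6 pair the samples. Deviations of same-numbered arrays correlated at 0.033, 0.053 and 0.009, which cannot show whether such arrays share a primary leukemia. Pairing therefore stays unknown, and the block is given only here and for Mrps6. In floxed versus Hoxa9-Meis1 leukemias the count of 9 became 4 with quantile normalization, 5 with centring, 5 with only the 2 groups and 18 with array weights, and 1 to 9 with each array left out. In deleted versus Hoxa9-Meis1 leukemias the count of 21 became 14 with quantile normalization, 16 with centring, 33 with array weights and 5 to 17 with each array left out. Over 529 refits of 38 named results on members, 363 kept the direction and the side of the threshold, 159 lost the call, 6 gained one (Mrps5 in floxed versus Hoxa9-Meis1) and 1 turned: Mrpl16 in deleted versus Hoxa9-Meis1 leukemias, at 0.049 without deleted replicate 6 and between -0.34 and 0.049 over the arrays left out. The cause of these changes was not tested, apart from fewer arrays where arrays were left out. Of 39 calls of other genes, 9 held without any 1 array. The 39 calls were of genes of the mitochondrial and regulator lists and of Mllt10, Psma2, Top2a, Cdk1, Rrm2, Cpa3, Fcer1a and Ms4a2. Calls of the remaining markers and of 2610507I01Rik and 4930473A02Rik are outside this count and are given beside each.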
